A study of Mus musculus with 12 samples.

Results

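The Hox cluster genes are the homeobox genes that lie side by side in 4 clusters of the mouse genome. For 38 of them the count of immunoprecipitated DNA reads was read out of 23870 named genes: 10 Hoxa genes on chromosome 6, 10 Hoxb genes on chromosome 11, 9 Hoxc genes on chromosome 15 and 9 Hoxd genes on chromosome 2. Members were taken by symbol, each through the longest RefSeq transcript that carries it. The rule uses no measured value, but earlier results of these data were known when it was set. The cells were mpkCCD cells, clone 11, a line of transformed principal cells of the mouse kidney collecting duct, at passages 6 to 10. They were kept with 0.1 nM dDAVP, a vasopressin analog selective for the V2 receptor, or with vehicle through the whole culture, and were harvested 24 h after serum was withdrawn. Both groups therefore come from 1 clone of 1 line, and the labels give 2% dialyzed serum for both. The study asked which genes gain RNA polymerase II (Pol II) after vasopressin. The 6 precipitations of Pol II are not analysed here. The values below are from the 6 control precipitations with a non-specific IgG antibody, 3 with dDAVP and 3 with vehicle (experiments 1 to 3). An IgG precipitation recovers genomic DNA without selecting a protein, so its reads measure how much DNA of a gene was recovered and sequenced. They do not measure expression, and markers of the cell type cannot be checked with them.

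Hox proteins bind DNA through the homeodomain and give cells of the embryo their identity along the body axis. Genes at the same place in different clusters are paralogs and share a number (Hoxa9, Hoxb9, Hoxc9, Hoxd9), low numbers acting towards the head and high numbers towards the tail and the tips of the limbs. In cells where they are silent, Hox clusters are a classic territory of Polycomb repression, and they are rich in CpG islands. In the kidney the group 11 genes act in the mesenchyme that induces the ureteric bud, and a Hoxb7 promoter is widely used to drive transgenes in the ureteric bud and collecting duct.

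The homeobox encodes the homeodomain that members share, and 1 pair is shown as an example of how alike paralogs are there. Whether a short read can be assigned to 1 member depends on the full intervals, which are compared below. The homeoboxes of the paralogs Hoxb9 and Hoxc9 are printed 5′ to 3′ on the coding strand from the GRCm38.p6 reference (coordinates as in mm10). They lie at chr11:96274659-96274838 and chr15:102983930-102984109, both on the plus strand and in a coding exon. Capitals mark the positions at which the pair differ.
Hoxb9: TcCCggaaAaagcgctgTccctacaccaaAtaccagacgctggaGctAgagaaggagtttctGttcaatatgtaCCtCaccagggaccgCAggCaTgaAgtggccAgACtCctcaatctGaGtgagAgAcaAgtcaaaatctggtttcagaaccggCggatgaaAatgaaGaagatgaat
Hoxc9: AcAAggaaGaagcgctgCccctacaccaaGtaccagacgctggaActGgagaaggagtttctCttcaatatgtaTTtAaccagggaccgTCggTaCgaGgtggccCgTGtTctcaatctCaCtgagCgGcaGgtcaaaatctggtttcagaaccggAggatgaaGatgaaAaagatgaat
Of the 180 positions, 151 (83.9%) are identical. The capitals are spread along the box, and the longest identical run is 24 bases, shorter than a read. Over the full intervals, 699 pairs of members that do not overlap were compared, and 25 pairs share an identical run of at least 50 bases, the read length. The longest shared run is 82 bases, between Hoxc10 and Hoxd11. At most 1.35% of the 50-base positions of a member, Hoxb7, are found in another member, 24 members share none, and 217 of the 317 shared positions are simple repeats. A read of one member could thus match another member at very few positions.

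Members differ strongly in CpG content. Hoxc9 and Hoxd9 are shown because they are paralogs whose read densities lie near opposite ends of the family. The window of 150 bases of coding sequence with the most CpG lies at chr15:102981995-102982144 in Hoxc9 and at chr2:74698258-74698407 in Hoxd9, both on the plus strand. Capitals mark each CpG.
Hoxc9: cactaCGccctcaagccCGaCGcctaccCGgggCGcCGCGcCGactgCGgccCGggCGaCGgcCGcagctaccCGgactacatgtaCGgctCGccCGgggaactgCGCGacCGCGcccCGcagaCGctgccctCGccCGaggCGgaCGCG
Hoxd9: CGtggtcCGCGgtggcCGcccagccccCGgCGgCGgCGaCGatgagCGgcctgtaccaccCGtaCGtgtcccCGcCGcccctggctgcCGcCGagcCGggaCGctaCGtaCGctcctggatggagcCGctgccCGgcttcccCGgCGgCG
The Hoxc9 window holds 28 CpG at 78% GC, and the Hoxd9 window 25 CpG at 78.7% GC, so both genes contain a dense stretch. They differ in what surrounds it: Hoxc9 has 27 CpG per kb over its interval of 7413 bases, and Hoxd9 has 67.5 per kb over 2446 bases. The observed over expected CpG ratio is 0.397 in Hoxc9 and 0.774 in Hoxd9.

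The 6 libraries hold 10588927 to 19748658 reads over all intervals, with a median of 92 to 155 reads per interval. Experiments 1 and 2 of a group were nearly alike, with a chi-square per degree of freedom of 1.02 for dDAVP (p = 0.0375) and 1.01 for vehicle (p = 0.15). Every other pair of libraries was at 1.68 or more. The dDAVP pair thus differed slightly more than sampling noise. Both pairs lay under the limit of 1.1 that was set for this, and each was counted as 1 sample, which leaves n = 2 samples per group. Whether the experiments were separate cultures is not in the labels, and the p-values cover only the spread of these samples, part of which may be technical. At 2 against 2 samples an exact permutation test, two-sided, cannot go below p = 0.333. The library of dDAVP experiment 3 stands apart: its chi-square per degree of freedom against the other libraries is 85.3 to 148, and its reads lie in fewer bases. Over the members, the part of the bases covered in that library was 0.638 times what evenly placed reads would give, against 0.749 and 0.758 times in vehicle experiments 1 and 2 and 0.930 to 0.961 times in the other 3 libraries, and over all genes it was 0.564 against 0.750 to 0.962 times. Vehicle experiment 3 also differed from vehicle experiments 1 and 2, with a chi-square per degree of freedom of 5.02 and 5.11. Values are therefore given with and without dDAVP experiment 3 where it matters.

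A member's interval runs from transcript start to end, exons, introns and untranslated regions included. The 38 intervals are 1.67 to 44.0 kb long, with a median of 3.08 kb against 14.2 kb over all genes. They hold 0 to 451 reads per library, and 22 members have at least 10 reads in every library. 6 intervals overlap another member and share its reads: Hoxa3 spans Hoxa4, Hoxa5 and Hoxa6, and Hoxd3 spans Hoxd4. Density is given as RPKM: the reads of an interval per kb of its length, relative to the library total taken with each gene counted once. Each member was divided by the median density of all genes 0.8 to 1.2 times as long in the same library. That relative density is 1 for a gene as densely covered as other genes of its length.

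The Hoxc cluster was covered more densely than other genes of its length, and the other 3 clusters less densely. The median relative density of the Hoxc genes was 1.44, 1.51 and 1.74 in dDAVP experiments 1 to 3 and 1.36, 1.16 and 1.099 in vehicle experiments 1 to 3, so all 6 libraries lay above 1. For Hoxb it was 0.669, 0.702 and 0.698 with dDAVP and 0.697, 0.628 and 0.575 with vehicle. For Hoxd it was 0.673, 0.600 and 0.587 with dDAVP and 0.746, 0.775 and 0.534 with vehicle. The Hoxb and Hoxd clusters thus lay below 1 in all 6 libraries. Hoxa lay below 1 in 5 libraries, with 0.709 and 0.781 in dDAVP experiments 1 and 2 and 0.658, 0.698 and 0.607 with vehicle, and was at 1.08 in dDAVP experiment 3, the library that stands apart. When each member was instead divided by the 200 genes nearest to it in GC content among those 0.5 to 2 times as long (the GC-matched reference), Hoxa was at 0.780 in that library and at 0.700 to 0.877 over all 6. Averaged as log2 over the 4 samples, the cluster medians were −0.40 ± 0.36 for Hoxa, −0.61 ± 0.13 for Hoxb, 0.46 ± 0.29 for Hoxc and −0.68 ± 0.22 for Hoxd (SD, n = 4), which is 0.759, 0.653, 1.37 and 0.624 times the density of genes of similar length. On the GC-matched reference they were −0.39 ± 0.09, −0.64 ± 0.25, 0.42 ± 0.12 and −0.66 ± 0.29.

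Hoxc differed from each other cluster by more than the spread between samples, although 4 samples cannot carry a call. Hoxc was 2.20-fold denser than Hoxd, with a log2 difference of 1.14 ± 0.35 (SD, n = 4 samples). Hoxb lay below Hoxc by a log2 difference of −1.07 ± 0.18, and Hoxa below Hoxc by −0.85 ± 0.13. These 3 differences had the same sign in 4 of 4 samples, and each had p = 0.125 by an exact sign-flip permutation test (two-sided), the lowest that 4 samples allow, or 0.188 after Benjamini-Hochberg adjustment over the 6 pairs. Hoxa exceeded Hoxb by 0.22 ± 0.28 in log2 in 4 of 4 samples (exact permutation p = 0.125, adjusted 0.188), a difference smaller than its spread. Hoxa against Hoxd gave 0.28 ± 0.44 (exact permutation p = 0.25, adjusted 0.3) and Hoxb against Hoxd 0.07 ± 0.19 (exact permutation p = 0.5, adjusted 0.5), each higher in 3 of 4 samples. The order of these 3 clusters is not resolved.

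**Figure D1:**
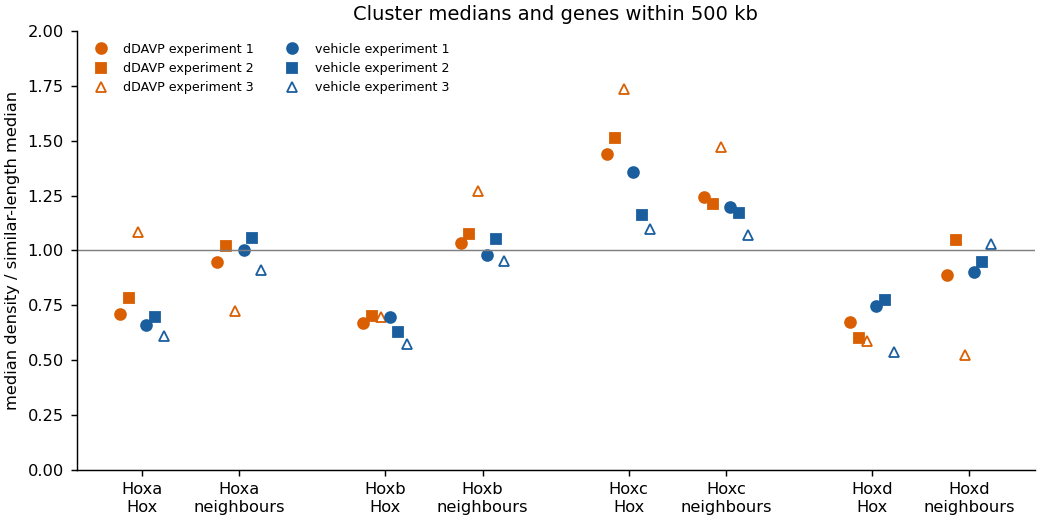
Median relative density (y axis, density over the median of genes of similar length) of each Hox cluster and of the genes within 500 kb of it, 1 point per library, dDAVP in orange and vehicle in blue, open triangles for experiment 3. The Hoxc points lie at 1.099 to 1.74 and its neighbours at 1.07 to 1.47, while the Hoxb points lie at 0.575 to 0.702 under neighbours at 0.952 to 1.27. The neighbour medians of Hoxc and Hoxb include microRNA genes with few or no reads.

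The position of each cluster was examined next, since members of a cluster share a stretch of chromosome. Of the genes within 500 kb of a cluster, 28 flank Hoxc, and their median relative density was 1.07 to 1.47 over the 6 libraries. They include the microRNA genes Mir148b, Mir421, Mir688 and Mir6963, of 0.02 to 0.097 kb, with 0 to 4 reads. In vehicle experiment 1 the reference median of these was 0, and they were ranked above all other neighbours, which raised the median there. The Hoxc genes exceeded their neighbours by 0.16 ± 0.11 in log2, 1.12-fold, in 4 of 4 samples, a value that these microRNA genes make approximate. The whole of chromosome 15 was dense, with a median of 1.16 to 1.63 over 835 genes. Set against genes of chromosome 15 that are 0.5 to 2 times as long, the Hoxc cluster was at a log2 of 0.07 ± 0.14, 1.05 times their density, so its excess was nearly absent against its own chromosome.

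The low value of Hoxb was not shared by its neighbours. The 24 genes within 500 kb of Hoxb had medians of 0.952 to 1.27, and the Hoxb genes lay below them by −0.71 ± 0.12 in log2 (0.613 times), lower in 4 of 4 samples. These neighbours include the microRNA gene Mir3063, which was ranked above the others in vehicle experiment 1 because its reference median was 0 there. Against genes of chromosome 11 the Hoxb cluster was at 0.615 times. The 7 neighbours of Hoxa had medians of 0.722 to 1.06, and the Hoxa genes differed from them by −0.25 ± 0.56 in log2, lower in 3 of 4 samples, a difference within its spread. The 4 neighbours of Hoxd had medians of 0.523 to 1.05, and the Hoxd genes differed from them by −0.42 ± 0.48 in log2, lower in 3 of 4 samples. For both of these the exception was dDAVP experiment 3. On the GC-matched reference the Hoxa, Hoxb and Hoxd clusters lay below their neighbours in 4 of 4 samples each, by log2 differences of −0.40 ± 0.09, −0.66 ± 0.22 and −0.71 ± 0.45. Under that reference Hoxc stayed above its neighbours by 0.19 ± 0.09.

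**Figure D2:**
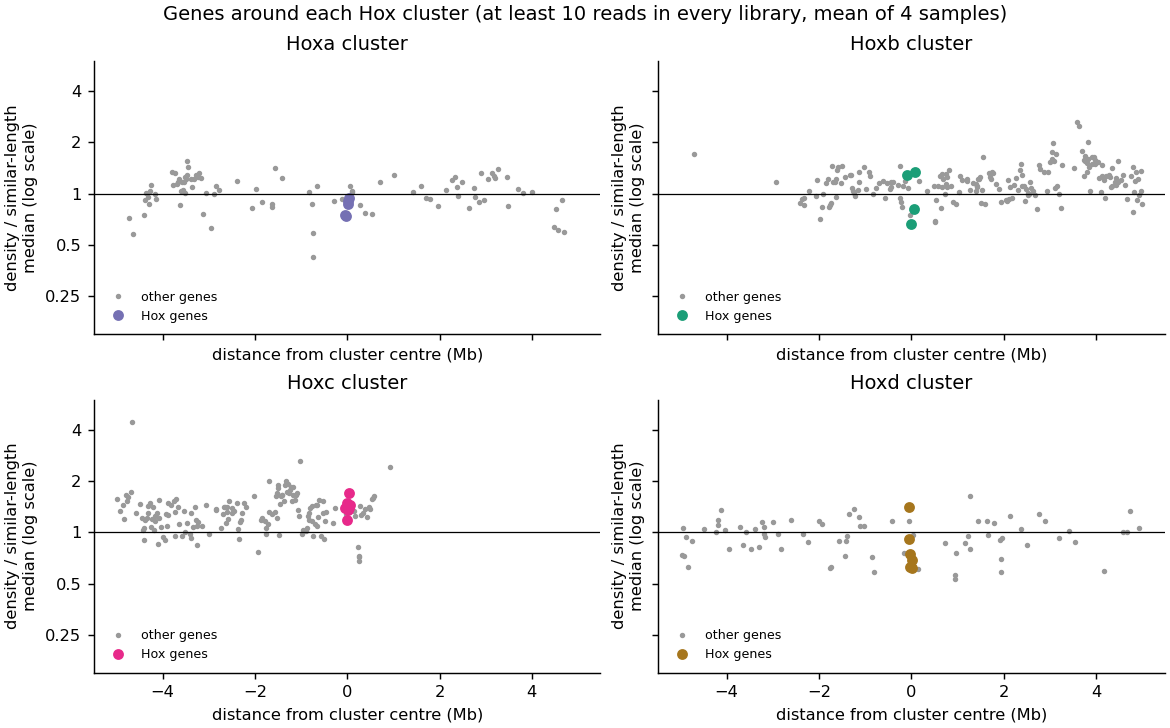
Relative density (log y axis, mean of 4 samples) of genes with at least 10 reads in every library against distance from the cluster centre in Mb, Hox genes coloured and other genes grey. The genes within 5 Mb of the Hoxc cluster have a median of 1.29 (164 genes), against 1.04 around Hoxa (97), 1.17 around Hoxb (201) and 0.966 around Hoxd (78).

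Within clusters the members were not alike. In the Hoxc cluster all 9 genes had a mean relative density above 1 (geometric mean over the 4 samples), from 1.03 for Hoxc12 to 1.69 for Hoxc6. For Hoxc12 this rests on the dDAVP libraries, since vehicle experiments 1 to 3 gave 0.675, 0 and 1.003. On the GC-matched reference the mean of Hoxc12 was 0.984. The Hoxa genes ran from 0.512 for Hoxa4 to 0.939 for Hoxa11, all under 1. The Hoxb genes ran from 0.435 for Hoxb4 to 1.34 for Hoxb1, and the Hoxd genes from 0.2502 for Hoxd8 to 1.40 for Hoxd12. In Hoxb the genes above 1 were Hoxb1 and Hoxb13 (1.28), the outermost at the 2 ends of the cluster, and the 8 genes between them lay at 0.435 to 0.814. That pair was picked out after its values were seen.

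Of the members, 6 were above 1 in every library, Hoxc4, Hoxc6, Hoxc8, Hoxc9, Hoxc13 and Hoxd12, which is 15.8% of them against 17.4% of 22755 genes with a relative density in all 6 libraries. 13 were below 1 in every library, 34.2% against 18.7%: Hoxa4, Hoxa5, Hoxa13, Hoxb2, Hoxb4 to Hoxb9, Hoxd4, Hoxd8 and Hoxd9. In the 5 libraries other than dDAVP experiment 3, 20 of 38 (52.6%) were below 1 against 31.2% of genes, and 6 (15.8%) above 1 against 31.6%. At the stricter limit of at most 0.8 in every library there were 8 members (21.1%) against 8.79%, and none of them was a Hoxc gene. At least 1.2 in every library was met by 1 member, Hoxc4, against 6.99% of genes. Low density was thus more frequent among the members than among genes at large, and high density was not.

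**Figure D3:**
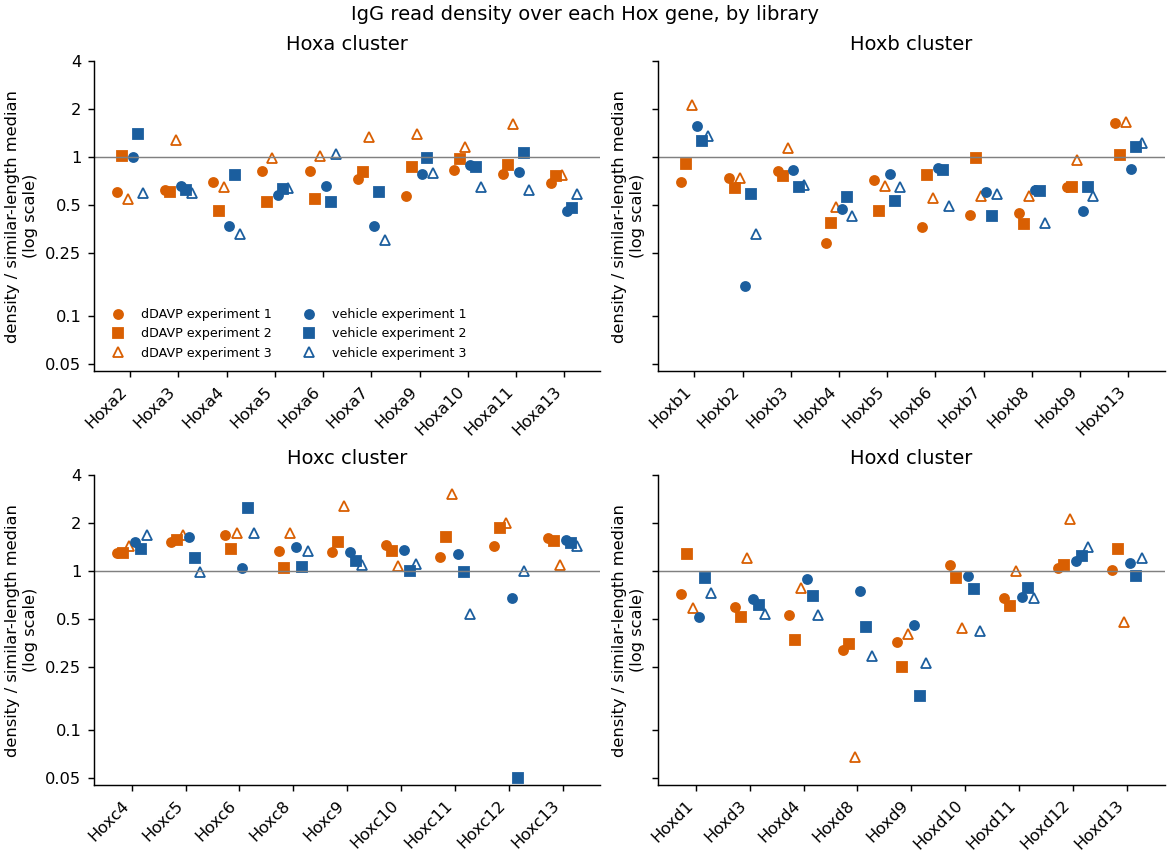
Relative density of each of the 38 members (log y axis), 1 panel per cluster, dDAVP libraries in orange and vehicle in blue, open triangles for experiment 3. Hoxc4, Hoxc6, Hoxc8, Hoxc9, Hoxc13 and Hoxd12 have all 6 points above 1. Hoxc12 in vehicle experiment 2, with 0 reads, is drawn at 0.05.

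Hoxc6, a trunk patterning gene at chr15:103009562-103011881, was the densest member. It held 27, 21 and 62 reads in dDAVP experiments 1 to 3 and 13, 29 and 31 in vehicle experiments 1 to 3. In relative density it stood at 1.68, 1.38 and 1.74 with dDAVP and 1.04, 2.48 and 1.73 with vehicle, so the groups overlapped and no library fell under 1. Hoxc4, at chr15:103034395-103036852 and named after its values were seen, was the one member at 1.2 or more in every library. It had 22, 21 and 54 reads with dDAVP and 20, 17 and 32 with vehicle, or relative densities of 1.29, 1.29, 1.43, 1.51, 1.37 and 1.67 in the same order. The least dense Hoxc member with at least 10 reads in every library was Hoxc10, at chr15:102966796-102971897, with 1.45, 1.34 and 1.07 with dDAVP and 1.36, 0.997 and 1.099 with vehicle. Hoxc10 thus differed little from genes of its length in 3 of the 6 libraries.

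Hoxc13, known for its role in hair and nail formation, has the longest Hoxc interval, 7.68 kb at chr15:102921131-102928814. Its reads numbered 94, 85 and 103 with dDAVP and 73, 67 and 101 with vehicle. The relative density was 1.62, 1.53 and 1.09 with dDAVP and 1.56, 1.495 and 1.43 with vehicle, the lowest value being in dDAVP experiment 3. Hoxc9, at chr15:102977032-102984444, had 1.32, 1.51 and 2.54 with dDAVP and 1.32, 1.16 and 1.09 with vehicle, so there the same library was the highest. On the GC-matched reference Hoxc9 was at 1.54 in that library and at 1.23 to 1.60 over all 6, and that library was no longer the highest.

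The Hoxd cluster held both dense and thinly covered genes. Hoxd12, a gene of digit and limb patterning at chr2:74675013-74677705, had 20, 20 and 88 reads with dDAVP and 17, 17 and 30 with vehicle. Its relative density was 1.05, 1.097 and 2.11 with dDAVP and 1.15, 1.24 and 1.42 with vehicle. It was the one member outside Hoxc that was above 1 in every library. Hoxd8 and Hoxd9, named here after their values were seen, were the least covered members. Hoxd8, at chr2:74705489-74707307, had 4, 4 and 2 reads with dDAVP and 7, 4 and 4 with vehicle. Hoxd9, at chr2:74697763-74700208, had 6, 4 and 15 reads with dDAVP and 6, 2 and 5 with vehicle. The relative density was 0.0681 to 0.746 in Hoxd8 and 0.163 to 0.457 in Hoxd9, below 1 throughout.

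The paralogs Hoxc9 and Hoxd9, whose CpG windows are printed above, were picked after their values were seen, for densities near opposite ends of the family. Their counting intervals did not overlap in any of the 6 libraries. That choice favours such a separation, so it is a description and not a test. RPKM is also not set against genes of similar length or of the same chromosome. The density of Hoxd9 was 0.282, 0.197 and 0.742 RPKM with dDAVP and 0.338, 0.119 and 0.159 RPKM with vehicle. That of Hoxc9 was 1.15, 1.30 and 3.82 RPKM with dDAVP and 1.096, 0.981 and 0.778 RPKM with vehicle. The exact Poisson 95% limits of Hoxd9 reached at most 0.735 RPKM in vehicle experiment 1, where the lower limit of Hoxc9 was 0.834 RPKM. In dDAVP experiment 3 the limits were 0.415 to 1.22 RPKM for Hoxd9 and 3.35 to 4.34 RPKM for Hoxc9. These limits cover counting error only, and reads of amplified libraries are not independent molecules.

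Hoxd4, at chr2:74721978-74729159, was the least dense Hoxd member with at least 10 reads in every library. It was at 0.531, 0.369 and 0.776 with dDAVP and 0.894, 0.695 and 0.531 with vehicle. Hoxd3, which contains Hoxd4 and has the longest Hoxd interval, 36.3 kb at chr2:74711993-74748271, held 172, 141 and 361 reads with dDAVP and 161, 140 and 213 with vehicle. The relative density of Hoxd3 was 0.595, 0.512 and 1.198 with dDAVP and 0.666, 0.608 and 0.534 with vehicle. It was below 1 in 5 libraries and above 1 in dDAVP experiment 3, where the GC-matched reference gave 0.648. On that reference Hoxd3 was below 1 in all 6 libraries, and Hoxd4 was at 0.483 in dDAVP experiment 3.

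Hoxa3, a gene of pharyngeal arch and thymus development, has the longest interval of all members, 44.0 kb at chr6:52169062-52213067, and is the one measured with the most reads. It held 215, 201 and 451 reads with dDAVP and 193, 173 and 291 with vehicle. Its relative density was 0.617, 0.602 and 1.28 with dDAVP and 0.655, 0.618 and 0.595 with vehicle. The 5 libraries other than dDAVP experiment 3 lay within 0.595 to 0.655, and dDAVP experiment 3 exceeded 1. On the GC-matched reference Hoxa3 was at 0.668 in dDAVP experiment 3 and at 0.630 to 0.726 over all 6 libraries, so the low value of this best counted member then held in each.

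Hoxb3 has the longest Hoxb interval, 24.8 kb at chr11:96323126-96347930, with 160, 140 and 251 reads with dDAVP and 133, 99 and 174 with vehicle. Relative density here was 0.820, 0.758 and 1.13 with dDAVP and 0.826, 0.650 and 0.666 with vehicle. The one value above 1, in dDAVP experiment 3, was 0.585 on the GC-matched reference. The interval has a short form of 4.16 kb, whose CpG ratio is 0.563 against 0.347 over the long one. The short form was less dense than the remaining 20.6 kb in every library, at 0.668, 0.779 and 0.623 times with dDAVP and 0.360, 0.377 and 0.468 times with vehicle. Reads in the short form numbered 7 to 28 per library, and no test was made. Hoxa10 and Hoxd11 also have a short form, and their ratio lay on both sides of 1.

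Hoxb1, the hindbrain gene at the end of its cluster, was the densest Hoxb member, at chr11:96365758-96368253. It had 12, 15 and 82 reads with dDAVP and 21, 16 and 26 with vehicle. The relative density was 0.692, 0.907 and 2.11 with dDAVP and 1.56, 1.27 and 1.35 with vehicle. The dDAVP libraries thus lay on both sides of the vehicle libraries. Hoxb9, at chr11:96271330-96276593, was the least dense Hoxb member with at least 10 reads in every library. It was at 0.645, 0.646 and 0.956 with dDAVP and 0.457, 0.649 and 0.568 with vehicle.

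Hoxb7 and the group 11 genes are known from kidney development. Hoxb7, at chr11:96286646-96290163, had 11, 24 and 29 reads with dDAVP and 12, 8 and 17 with vehicle, and a relative density of 0.430, 0.982 and 0.571 with dDAVP and 0.603, 0.427 and 0.581 with vehicle. It was below genes of its length in all 6 libraries. Hoxa11, at chr6:52242105-52245810, was the densest Hoxa member, with 21, 23 and 87 reads with dDAVP and 17, 21 and 19 with vehicle. Its relative density was 0.778, 0.894 and 1.61 with dDAVP and 0.808, 1.05 and 0.620 with vehicle. The vehicle libraries thus lay on both sides of the values of dDAVP experiments 1 and 2.

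Hoxd11 is represented by a noncoding transcript of 7.46 kb at chr2:74679558-74687016, with 38, 32 and 93 reads with dDAVP and 31, 34 and 46 with vehicle. The relative density of Hoxd11 was 0.672, 0.600 and 1.00 with dDAVP and 0.688, 0.783 and 0.673 with vehicle, and the GC-matched reference gave 0.644 in dDAVP experiment 3. In dDAVP experiment 3, 61 of its 93 reads lay in the 2.77 kb outside the 4.69 kb short form, against 8 to 14 reads there in the other libraries. Hoxc11, at chr15:102954526-102956701, had 19, 23 and 104 reads with dDAVP and 15, 11 and 9 with vehicle. Its relative density was 1.22, 1.63 and 3.04 with dDAVP and 1.27, 0.990 and 0.540 with vehicle, the widest span of any of these 4 genes.

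Members low in density tended to be rich in CpG. Over the 38 members the observed over expected CpG ratio had a median of 0.530, against 0.231 over all genes, and the GC content a median of 52.8% against 45.7%. The log2 of the relative density, averaged over the samples, fell with the CpG ratio, with Pearson r = −0.56 and Spearman rho = −0.46 across the 38 members. The points share their libraries, overlapping members share reads, and members are not independent replicates, so this is a description. Within single libraries r was −0.29 to −0.53 over the 38 members. Without the Hoxc genes (29 members) r was −0.63, and −0.31 to −0.60 within single libraries. With GC content r was −0.22. Hoxd8 has the highest CpG ratio, 0.918, and the lowest relative density, and Hoxd9 follows it in density with a CpG ratio of 0.774. Hoxc also lay above the other clusters on a reference matched for CpG: against the 200 genes nearest in GC content and CpG ratio together, the cluster medians were 0.799 for Hoxa, 0.693 for Hoxb, 1.51 for Hoxc and 0.702 for Hoxd.

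**Figure D4:**
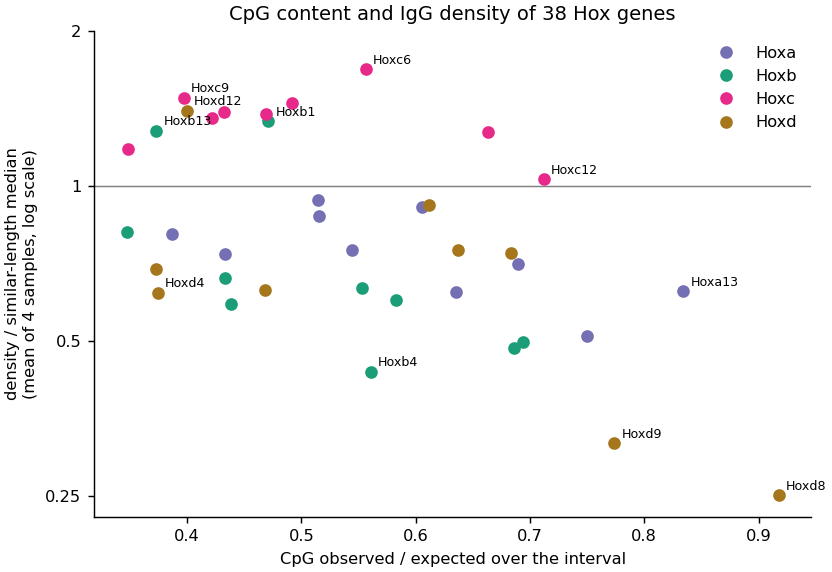
Relative density (log y axis, mean of 4 samples) of the 38 members against the observed over expected CpG ratio of their intervals (x axis), coloured by cluster. Hoxd8 (0.918, 0.2502) lies at the lower right, and the 9 Hoxc genes lie at 1.03 to 1.69.

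Along the clusters, the members of paralog groups 9 to 13 had a higher median relative density than those of groups 4 to 8 in each of the 4 samples, with means over the samples of 0.945 (16 members) and 0.668 (15). Groups 1 to 3 (7 members) had a mean of 0.777, which includes 1.13 in dDAVP experiment 3. In the sample of vehicle experiments 1 and 2 groups 1 to 3 were at 0.658, below the 0.688 of groups 4 to 8, so the order of these groups was not fixed. Without the Hoxc genes the means were 0.828 for groups 9 to 13, 0.560 for groups 4 to 8 and 0.777 for groups 1 to 3. The groups differ in length, CpG content and cluster, and the difference was not tested.

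With dDAVP, no member passed the test against vehicle. edgeR's quasi-likelihood test over 30912 intervals called 0 of them (0%) at an adjusted p under 0.05 and 0 of the 36 members it could test, with adjusted p of 0.619 to 0.986. Hoxd8 and Hoxd9 were under its filter on low counts. DESeq2 also called 0 of 32956 intervals (0%). At an unadjusted p under 0.05, edgeR gave 236 intervals, all higher with dDAVP (0.763%), among them 2 members, Hoxc12 and Hoxa7, and DESeq2 gave 1082 intervals, 1070 of them higher (3.25%), among them 3 members. The fitted log2 ratio of dDAVP over vehicle was above 0 for 36 of 36 members, against 50.4% of all intervals, with a median of 0.75 against 0.01 over all. Under DESeq2's size factors in edgeR it was 35 of 36, Hoxd13 falling just under 0.

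That shared direction was weaker without dDAVP experiment 3, the library that stands apart. Without it, experiments 1 and 2 are left as the only dDAVP sample, so only effect sizes are given for that fit. In it, 23 of 37 members tested were above 0, against 49.8% of intervals, with a median log2 ratio of 0.19. Without dDAVP experiments 1 and 2 instead, which leaves experiment 3 as the only dDAVP library, edgeR called 25 of 37 members, all higher, where it called 73.6% of all intervals and 36.2% as higher. With an offset for GC content fitted in each library, 25 of 36 were above 0 with a median of 0.18, while 81.3% of all intervals were above 0 with a median of 0.28, so the members were then below the typical interval. By cluster the median log2 ratio was 1.06 for Hoxa, 0.69 for Hoxb, 0.84 for Hoxc and 0.60 for Hoxd, and without dDAVP experiment 3 it was 0.28, 0.12, 0.37 and −0.06. In the cluster medians of relative density both dDAVP samples lay above both vehicle samples for Hoxa, Hoxb and Hoxc, with log2 differences of 0.49, 0.16 and 0.44 (exact permutation p = 0.333 each, two-sided, the smallest that this design allows). Hoxd gave −0.06 (exact permutation p = 1). On the GC-matched reference the differences were 0.14 for Hoxa and 0.16 for Hoxc (exact permutation p = 0.333 each), and −0.23 for Hoxb and −0.27 for Hoxd (exact permutation p = 0.667 each), so the sign for Hoxb turned.

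Hoxc12, at chr15:102936853-102938517, is the shortest member, and had the smallest p of the members. It held 17, 20 and 54 reads with dDAVP and 6, 0 and 13 with vehicle. The density was 1.17, 1.45 and 3.93 RPKM with dDAVP and 0.496, 0 and 0.608 RPKM with vehicle, where 0 reads allow up to 0.322 RPKM (exact Poisson 95% limit, two-sided, counting error only). All 3 dDAVP libraries lay above all 3 vehicle libraries. The log2 ratio was 2.27 ± 0.85 (SE, edgeR, adjusted p = 0.619). Without dDAVP experiment 3, which leaves a single dDAVP sample, it was 1.55. Hoxa7, at chr6:52215624-52218573, held 15, 16 and 59 reads with dDAVP and 6, 9 and 7 with vehicle, or 0.585, 0.654 and 2.42 RPKM against 0.280, 0.444 and 0.185 RPKM. Its groups did not overlap either. The log2 ratio was 2.14 ± 0.86 (SE, edgeR, adjusted p = 0.619), and 1.11 without dDAVP experiment 3.

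Hoxc11 had a log2 ratio of 2.22 ± 0.90 (SE, edgeR, adjusted p = 0.619). Its density was 1.00, 1.28 and 5.79 RPKM with dDAVP and 0.949, 0.735 and 0.322 RPKM with vehicle, so the groups were separated by a narrow gap, and dDAVP experiment 3 was far above the rest. Without that library its log2 ratio was 0.89. Of the other kidney genes, Hoxa11 had a log2 ratio of 1.32 ± 0.76, Hoxb7 of 0.76 ± 0.67 and Hoxd11 of 0.61 ± 0.58 (SE, edgeR, adjusted p = 0.619 each). Without dDAVP experiment 3 these were 0.25, 0.53 and −0.05. Hoxd13 had the smallest log2 ratio, 0.02 ± 0.59.

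In density, all 3 dDAVP libraries exceeded all 3 vehicle libraries for 10 of 38 members (26.3%), against 17.2% of genes. These were Hoxa7, Hoxa13, Hoxb2, Hoxb9, Hoxc9 to Hoxc13 and Hoxd10, 5 of them in the Hoxc cluster. The reverse held for 0 members, against 9.52% of genes. Experiments 1 and 2 of a group were nearly alike and were counted as 1 sample, so such a separation rests on 2 samples a group. Whether they are independent is not in the labels.

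**Figure D5:**
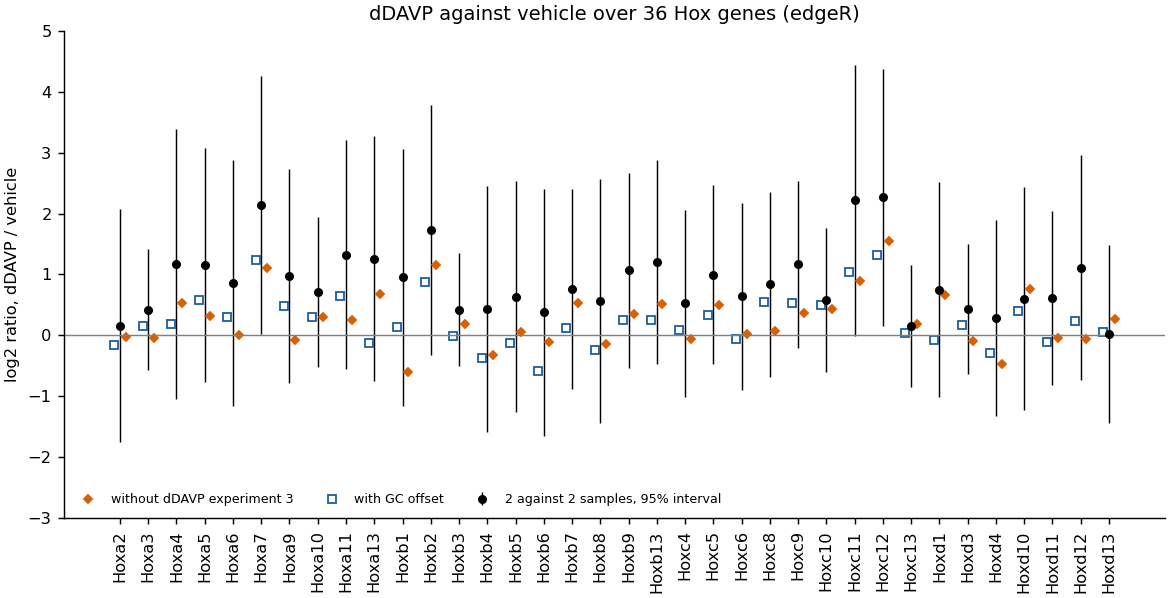
Log2 ratio of dDAVP over vehicle from edgeR (y axis) for the 36 members tested, black points with 95% intervals, with the same ratio without dDAVP experiment 3 (orange diamonds) and with a GC offset (open blue squares). All black points lie above 0, and most orange and blue points lie nearer to 0. With the GC offset the median over all intervals was 0.28, so a blue square at 0 lies below the typical interval.

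Genes that work with Hox proteins, regulate them or resemble them were read in the same way. The cofactors of the TALE class, Pbx, Meis and Pknox proteins that bind DNA beside Hox proteins, had a median relative density of 1.06 ± 0.20 under dDAVP and of 0.942 ± 0.009 under vehicle (mean ± SD of 2 samples each, 9 of 9 genes measured). Among them Pknox2 was highest at 1.28 and Meis3 lowest at 0.766 (geometric means). The members had 0.923 ± 0.167 with dDAVP and 0.712 ± 0.105 with vehicle. The Polycomb and trithorax genes, whose proteins silence or maintain Hox clusters, had 1.16 ± 0.36 and 0.879 ± 0.023 (18 of 18), from 0.462 for Eed, a core Polycomb subunit, to 1.43 for Men1, menin of the MLL complexes. The TALE cofactors were denser than the members in vehicle, with no overlap of the sample values. They differ from the members in composition, with a median length of 138.5 kb against 3.083 kb and a median CpG ratio of 0.212 against 0.530.

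The homeobox families outside the clusters resembled the members in composition. The ParaHox and Evx genes, with a median CpG ratio of 0.532, had 1.28 ± 0.34 with dDAVP and 0.824 ± 0.264 with vehicle (8 of 8), from 0.344 for Cdx4 to 1.47 for Pdx1, a pancreas gene. Evx1 and Evx2, next to the Hoxa and Hoxd clusters and named after their values were seen, were at 1.04 and 1.16, above most of the Hox genes beside them. Both were highest in dDAVP experiment 3, at 1.625 and 1.761. In the other libraries Evx1 was at 0.694 to 1.363 and Evx2 at 0.885 to 1.313, on both sides of 1. The Dlx and Irx genes, with a median CpG ratio of 0.601, had 1.27 ± 0.40 and 0.787 ± 0.032 (12 of 12), from 0.532 for Irx2 to 1.39 for Irx6. In both families dDAVP experiment 3 gave the high value, 1.52 and 1.55, against 0.637 to 1.14 and 0.765 to 1.06 in the other 5 libraries. With vehicle the means of both families also lay under 1, and their sample values overlapped those of the members (0.712 ± 0.105). A low vehicle value was thus not particular to the Hox genes.

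Noncoding RNA genes inside the clusters share DNA with the members, and the counts do not use strand. Of 17 listed, 13 had an interval, and 7 had at least 10 reads in every library. The others are microRNA genes of 0.068 to 0.11 kb with 0 to 3 reads per library. For most of them the reference median was 0 in vehicle experiments 1 and 2, so no median over the list is given. Hotair, transcribed from the Hoxc cluster, was highest at 1.28, with 46, 50 and 39 reads with dDAVP and 51, 35 and 36 with vehicle. Hoxd3os1, in the Hoxd cluster, was lowest at 0.494, with 23, 25 and 39 reads against 25, 18 and 21. Hotair was under 1 in dDAVP experiment 3, at 0.687. In the Hoxa cluster Hoxa11os was at 1.03 and Hottip at 1.11, named after their values were seen. Hoxa11os was at 1.975 in dDAVP experiment 3 and at 0.744 to 1.097 in the other libraries. Hottip was above 1 in every library, at 1.014 to 1.252, so noncoding genes did not all lie on the side of 1 of their cluster. The kidney developmental transcription factors had 1.25 ± 0.32 and 0.999 ± 0.040 (18 of 18), from 0.543 for Tfap2a to 1.72 for Wt1, a gene of nephron progenitors and podocytes. In the vehicle samples their median was that of genes of their length, while that of the Hox genes was below it.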

How the data were processed

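IgG chromatin was cross-linked with 1.11% formaldehyde, and BWA placed the 50-base reads on mm10, per the labels' protocols. SAMtools and bedtools are named without versions in the submitters' processing notes. The deposited count of an interval gives the reads that overlap a RefSeq transcript, introns included, without strand, and the deposited fraction is the part of its bases with at least 1 read, per the file headers. Whether duplicates or poorly mapped reads were removed is not given in the sources used here. The deposited counts carry no normalization.

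Of 33062 intervals common to the 6 libraries, 32763 (99.1%) received a symbol, and 1 interval missing in a library was left out. Each gene was represented by its longest interval. GC content, CpG and sequences came from the GRCm38.p6 reference. Experiments 1 and 2 of a group, whose chi-square per degree of freedom lay under 1.1, were summed for edgeR and averaged for densities. The dDAVP test used edgeR 4.0.16 in R 4.3.3 (TMM, filterByExpr, two-sided quasi-likelihood test, Benjamini-Hochberg at 0.05 over 30912 intervals) without covariates, and DESeq2 1.42.0 was the other tool. Densities, exact permutation tests and sequences used Python 3.11.15, numpy 2.4.6, scipy 1.17.1, pandas 2.3.3 and pysam 0.24.0. The scripts were tested on simulated data.

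Members, gene lists, tests and alternatives were chosen with earlier results of these data known. Named genes are, in each cluster, the member of highest and lowest relative density among those with at least 10 reads in every library, and the longest; the 3 of smallest edgeR p in each direction (none was lower); Hoxb7, Hoxa11, Hoxc11 and Hoxd11; and the highest and lowest gene of each other list. Other names are marked as chosen after their values were seen, apart from members given as the end of a range, such as Hoxd13, or listed under a count. Alternatives varied the reference genes, the length window, the interval, the summary, the filters, the normalization, the GC offset, the replicate block and the libraries left out. The fits with a GC offset used library sizes without the TMM factors. The references matched on CpG, and on chromosome for the differences between clusters, were chosen after seeing the data.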

Additional observations from a re-analysis of the deposited data

How the results depend on the processing

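The 4 cluster medians kept their sign under all 17 alternatives each, and the differences between clusters and from flanking genes kept theirs under all 8 each. The Hoxb median of −0.61 in log2 became −0.42 as a mean over members, −0.75 with the shortest interval of each gene and −0.035 over members with at least 10 reads in every library, a filter that keeps the denser members. The Hoxd median of −0.68 became −0.44 as a mean over members and −0.37 with at least 10 reads. The Hoxc median of 0.46 became 0.067 against genes of its own chromosome.

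Against vehicle, 0 intervals and 0 members were called under 16 of 17 alternatives. Without dDAVP experiments 1 and 2, which leaves dDAVP experiment 3 alone and assumes that it varies like the vehicle samples, 23054 of 31309 intervals (73.6%) and 25 of 37 members were called, all 25 higher (36.2% of intervals were called higher), with Hoxc12 at 2.78, Hoxa7 at 2.72 and Hoxc11 at 2.88 in log2. Leaving out 1 library at a time, 23 to 36 members had a log2 ratio above 0, the lowest being without dDAVP experiment 3. With the experiment number as a replicate block, edgeR called 0 intervals and 0 members (210 intervals at an unadjusted p under 0.05, 188 of them lower), and the block with a GC offset also gave 0 and 0. The labels give the groups the same experiment numbers only. The deviations of same-numbered libraries from their group mean correlate at −0.28, −0.29 and −0.49. Because experiments 1 and 2 of a group were nearly alike, these values mainly reflect how experiment 3 differs in each group. They cannot show whether the numbers pair the samples. Library size alone as normalization moved the median log2 ratio of all intervals to 0.24.

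The depth limits short members most: 16 of the 38 have under 10 reads in at least 1 library.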
